A study of Mus musculus with 2 samples.

Results

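The genes of the brain microRNAs miR-9 and miR-124 were followed copy by copy in small RNA sequencing of the developing mouse forebrain. Both microRNAs are encoded by 3 separate genes in the mouse genome. The 6 table rows that stand for them were chosen by gene name (Mir9-2, Mir9-3, Gm25641, Mir124a-1, Mir124a-2 and Mir124a-3) out of 1973 microRNA genes in the deposited tables. Gm25641 lies on the strand opposite to Mir9-1, which has no row of its own, so the reads counted opposite to Gm25641 were used for the Mir9-1 locus. The tissue was forebrain of B6NCrl mouse embryos at embryonic day 13.5, labelled healthy and with males and females pooled. There was 1 group with 2 libraries, which the labels call biological replicates 1 and 2 and which share a donor identifier, and no treatment or other genotype. The labels do not say how many embryos were pooled for each library, so the spread between them may in part be technical. The libraries were limited to RNA under 30 nucleotides.

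A microRNA gene is transcribed as a longer RNA, and a hairpin cut from it gives a short mature RNA from its 5′ arm, its 3′ arm or both. The mature RNA guides Argonaute proteins to messenger RNAs, mainly through its seed (bases 2 to 8). miR-9 is known from neural progenitors, where it acts on regulators of progenitor renewal such as Nr2e1 and Hes1. miR-124 is the characteristic microRNA of neurons, and lowers among others Ptbp1, a splicing regulator of non-neuronal cells. Genes that give the same mature RNA cannot be told apart by a read that holds only that RNA.

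The mature sequences of miR-9 (RefSeq, GRCm38.p6) are shown because all 3 genes give exactly these RNAs. The seed is in capitals.
mmu-miR-9-5p: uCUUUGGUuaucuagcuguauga
mmu-miR-9-3p: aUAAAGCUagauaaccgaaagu
The hairpins from which they are cut are shown next, with the mature arms in capitals. Letters in lower case are the part of each gene that does not belong to the annotated mature RNA.
Mir9-1: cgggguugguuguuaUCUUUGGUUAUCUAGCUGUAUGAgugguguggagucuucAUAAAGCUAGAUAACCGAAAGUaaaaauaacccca
Mir9-2: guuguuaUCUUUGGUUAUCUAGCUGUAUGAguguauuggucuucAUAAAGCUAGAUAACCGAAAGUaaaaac
Mir9-3: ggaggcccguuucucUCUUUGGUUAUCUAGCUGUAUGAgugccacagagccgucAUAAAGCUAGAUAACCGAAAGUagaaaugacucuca
Mir9-1 lies on chromosome 3 (88215598 to 88215686), Mir9-2 on chromosome 13 (83738814 to 83738885) and Mir9-3 on chromosome 7 (79505264 to 79505353), all on the plus strand. For Mir124a-1, Mir124a-2 and Mir124a-3 no sequence is printed.

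The copies of Mir9 first differ close to the mature arms, and not equally close for each copy. The 5′ arm is shown with 1 base before it and 4 bases after it, with capitals where the 3 copies are not all alike.
Mir9-1: AucuuugguuaucuagcuguaugagugG
Mir9-2: AucuuugguuaucuagcuguaugagugU
Mir9-3: CucuuugguuaucuagcuguaugagugC
The 3′ arm is shown in the same way with 3 bases before it and 6 after it.
Mir9-1: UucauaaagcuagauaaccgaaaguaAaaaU
Mir9-2: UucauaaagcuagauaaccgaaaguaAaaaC
Mir9-3: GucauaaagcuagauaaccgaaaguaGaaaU
A stretch that starts 1 base before the 5′ arm of Mir9-3 and ends with that arm (24 nucleotides) had 1 place among annotated microRNA hairpins, as did its 3′ arm with 2 more bases at the 3′ end (24 nucleotides). Mir9-1 and Mir9-2 needed 4 more bases after the 5′ arm (27 nucleotides) or 6 more after the 3′ arm (28 nucleotides). The longest unbroken stretch shared by Mir9-1 and Mir9-2 was 33 nucleotides, and Mir9-3 shared 26 nucleotides with either of them.

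The tables held 10631040 reads in replicate 1 and 10452225 in replicate 2, of which 4117752 (38.7%) and 3908953 (37.4%) were counted on the strand of a microRNA gene. Multi-mapped reads, which fit more than 1 place, stand in a row of their own with 4315754 reads (40.6%) in replicate 1 and 4589546 (43.9%) in replicate 2. How many of them came from Mir9 or Mir124 genes is not recorded in the tables. As a check of the tissue label, 5 of 5 further neural microRNAs (Mir92b, Mir137, Mir153, Mir128-1 and Mir128-2) had at least 10 counts in each library. Their summed level was 26470 and 22791 CPM, counts per 1000000 gene counts. Markers of other cell types were present too, with endothelial Mir126a at 16042 and 18828 CPM and the choroid plexus and ciliated cell markers Mir204 and Mir449a together at 8917 and 6465 CPM. Liver, muscle, erythroid, leukocyte and posterior markers summed to between 33.8 and 434 CPM a list, and of 3 muscle markers 1 was detected. The part of these cell types in the counts below was not tested.

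Among the Mir9 copies most counted reads fell on Mir9-3. Mir9-3 (ENSMUSG00000093238.1) had 3103 counts in replicate 1 and 2823 in replicate 2, which was 754 and 722 CPM (738 ± 22.2, SD, n = 2 libraries). The Mir9-1 locus had 410 and 387 reads opposite to Gm25641 (ENSMUSG00000092876.1), which was 99.6 and 99.0 CPM (99.3 ± 0.400). Mir9-2 (ENSMUSG00000065424.1) had 20 and 18 counts, or 4.86 and 4.60 CPM (4.73 ± 0.178). The levels of the 3 copies lay far apart in each library, with no overlap between copies. In replicate 1 Mir9-3 held 87.8% of the Mir9 counts (exact 95% interval 86.7 to 88.9), and in replicate 2 it held 87.5% (86.3 to 88.6). The Mir9-1 locus held 11.6% (10.6 to 12.7) and 11.99% (10.9 to 13.2) in replicates 1 and 2, and Mir9-2 held 0.566% and 0.558%. The division among copies was thus nearly the same in both libraries. Mir9-3 counts were 7.57 (6.83 to 8.41) and 7.29 (6.56 to 8.13) times those of the Mir9-1 locus in replicates 1 and 2, which in turn were 20.5 (13.1 to 33.9) and 21.5 (13.4 to 36.7) times those of Mir9-2.

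**Figure D1:**
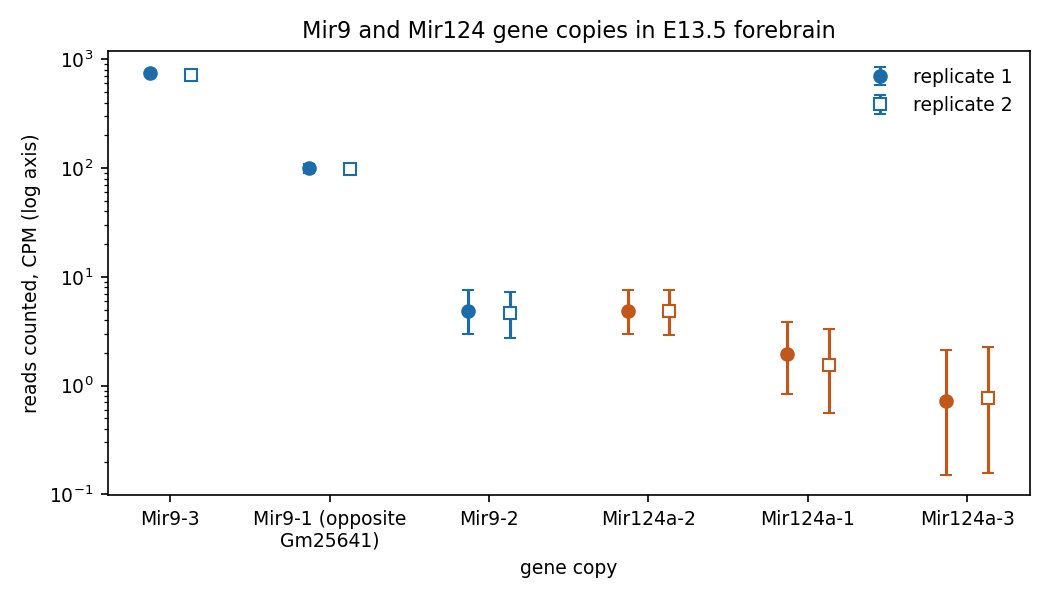
Level of each Mir9 copy (blue) and Mir124 copy (orange) in CPM on a log axis, for replicate 1 (filled circles) and replicate 2 (open squares), with exact 95% Poisson intervals of the counts. Mir9-3 stands near 738 CPM and the Mir9-1 locus near 99.3 CPM, while Mir9-2 and Mir124a-2 lie together near 5 CPM. The intervals of Mir124a-1 overlap those of Mir9-2, Mir124a-2 and Mir124a-3 in each library.

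The Mir124 copies had few counts. Mir124a-2 (ENSMUSG00000093073.1, chromosome 3, 17795662 to 17795770) had 20 and 19 counts in replicates 1 and 2, or 4.86 ± 0.00256 CPM (SD, n = 2). Its SD is far below the counting error, since the exact Poisson interval of replicate 1 alone runs from 2.97 to 7.50 CPM. Mir124a-1 (ENSMUSG00000065597.1, chromosome 14, 64590657 to 64590741) had 8 and 6 counts, or 1.74 ± 0.288 CPM. Mir124a-3 (ENSMUSG00000065454.1, chromosome 2, 180894040 to 180894107) had 3 and 3 counts, or 0.748 ± 0.0275 CPM, beside 9 and 10 reads on its opposite strand. The count order of the copies was the same in both libraries. Mir124a-2 had 2.50 (1.055 to 6.56) and 3.17 (1.22 to 9.69) times the counts of Mir124a-1, so the interval excluded equal counts in each library. Mir124a-1 and Mir124a-3 could not be told apart at this depth, at ratios of 2.67 (0.640 to 15.6) and 2.00 (0.427 to 12.4). Of the summed Mir124 counts, Mir124a-2 held 64.5% (45.4 to 80.8) in replicate 1 and 67.9% (47.6 to 84.1) in replicate 2.

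Summed over copies, the Mir9 genes reached 842 ± 22.8 CPM and the Mir124 genes 7.35 ± 0.258 CPM (SD, n = 2). The Mir9 sum includes the reads opposite to Gm25641, which the total of own-strand gene counts does not hold. Mir9-3 and Mir9-2, which that total does hold, made up 743 ± 22.4 CPM or 0.0743% of it, and the Mir124 genes 0.000735%. The multi-mapped row was much larger than either sum. There were 1222 multi-mapped reads for each read counted on a Mir9 gene in replicate 1 and 1422 in replicate 2, and 139218 and 163912 for each read counted on a Mir124 gene. The counts printed here are therefore the reads that were placed on a copy, and they do not measure how much miR-9 or miR-124 the tissue held. Intervals cover counting error only and treat reads as independent. PCR copies of a molecule are not independent, so the intervals may be too narrow.

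Stretches that fit only 1 hairpin differed between copies of a family. Of the windows of 22 nucleotides along the Mir9-3 hairpin, 60 of 69 (87.0%) had 1 place among annotated microRNA hairpins. For Mir9-1 these were 44 of 68 (64.7%) and for Mir9-2 27 of 51 (52.9%). In the Mir9 family the order of counts, Mir9-3 above the Mir9-1 locus above Mir9-2, was thus also the order of these shares, a description over 3 genes whose hairpins share their mature arms. In the Mir124 family the shares were 62 of 88 windows (70.5%) for Mir124a-2, 43 of 64 (67.2%) for Mir124a-1 and 27 of 47 (57.4%) for Mir124a-3. Own-strand counts had the same order, but those of Mir124a-1 and Mir124a-3 could not be told apart. With reads of either strand Mir124a-3 stood above Mir124a-1. The number of windows with 3 places was 9 in every Mir9 hairpin and 15 in every Mir124 hairpin. The share of Mir124a-2 lay above that of Mir9-1, while the Mir9-1 locus had 20.5 and 20.4 times its counts in replicates 1 and 2. Longer annotated hairpins hold more windows outside the arms, and the extent annotated for Mir9-2 and Mir124a-3 belongs to a later version of the gene than the counts.

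**Figure D2:**
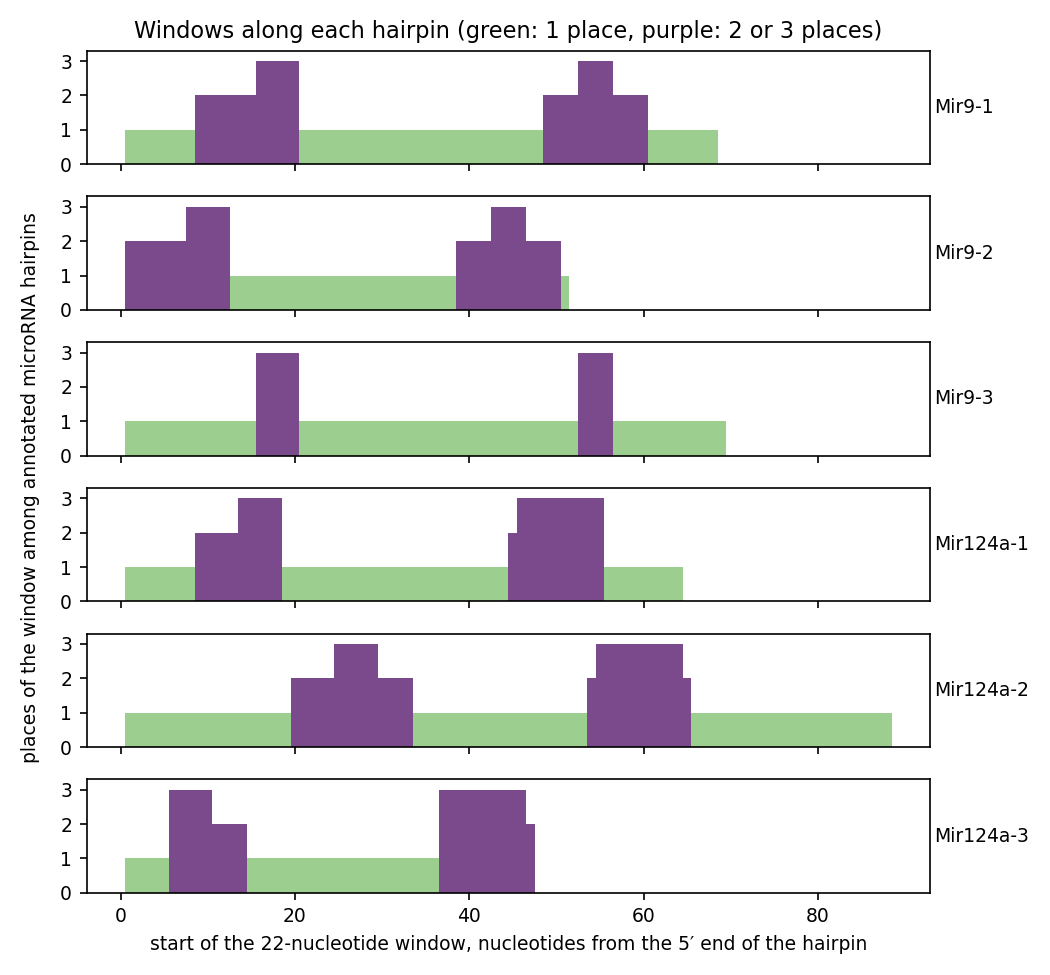
Number of places that each window of 22 nucleotides had among annotated microRNA hairpins, by the start of the window from the 5′ end of the hairpin, for the 3 Mir9 and the 3 Mir124 hairpins. The Mir9-3 hairpin has 9 windows with 3 places and 0 with 2, while Mir9-1 and Mir9-2 each have 15 windows with 2 places beside 9 with 3.

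The copies of Mir124 were alike over most of their hairpins. Mir124a-1 and Mir124a-2 had identical bases at 91.8% of the shorter hairpin and shared an unbroken stretch of 32 nucleotides. Mir124a-2 and Mir124a-3 were 97.1% identical with a stretch of 32, and Mir124a-1 and Mir124a-3 were 95.6% identical with a stretch of 31. Among the Mir9 hairpins the identity was 95.8% between Mir9-1 and Mir9-2, 86.1% between Mir9-2 and Mir9-3 and 80.9% between Mir9-1 and Mir9-3. All 3 longest shared stretches of the Mir124 genes exceed the size limit of the libraries, as do the 33 nucleotides shared by Mir9-1 and Mir9-2.

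The genomic setting of the copies also differed (GENCODE M21, GRCm38). Mir9-2 lies wholly within an exon of the long non-coding RNA gene C130071C03Rik, in 2 of its 5 annotated transcripts. Mir9-3 lies in an intron of Mir9-3hg and Mir9-1 in an intron of Gm3764, with Gm25641 at the same place on the opposite strand. Mir124a-1 lies in full within an exon of Mir124a-1hg, in 2 of the 4 annotated transcripts of that gene. Mir124a-2 reaches 27 of its 109 nucleotides into an exon of Mir124-2hg, in 1 of 7 transcripts. Mir124a-3 overlaps Gm27032 by 3 of its 68 nucleotides. Mir9-2 was the copy with the fewest counts of its family. Mir124a-1 had fewer counts than Mir124a-2 and could not be told apart from Mir124a-3. A relation between exonic position and counts was not tested. Of the host genes, 2 hold another microRNA gene of the table, and both of these have 1 place for all of their 66 windows. Mir3078, in the same exon as Mir124a-1 and 444 nucleotides away, had 105 and 81 counts in replicates 1 and 2, which was 13.1 and 13.5 times the counts of Mir124a-1. Mir3093, 332 nucleotides from Gm25641, had 262 and 181 counts, which was 0.639 and 0.468 times those of the Mir9-1 locus. How far host transcription, processing or placement of reads sets these levels was not tested.

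On the other strand of the Mir9 hairpins the counts were at or near 0. RefSeq annotates a microRNA gene there for each copy, Gm25641 (synonym Mir9b-1), Gm51268 (Mir9b-2) and Gm51285 (Mir9b-3). Its arms are shown, with the seed in capitals, because they differ from the arms of miR-9.
mmu-miR-9b-5p: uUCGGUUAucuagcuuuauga
mmu-miR-9b-3p: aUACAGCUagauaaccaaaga
Gm25641 itself had 0 counts on its own strand in both libraries, which allows up to 3 counts or 0.729 CPM in replicate 1 and 0.767 CPM in replicate 2. Reads opposite to Mir9-2 numbered 0 and 0, and those opposite to Mir9-3 numbered 3 and 2 (0.0966% and 0.0708% of its reads on either strand). All 410 and 387 reads at Gm25641 therefore lay on the strand of Mir9-1. Without the strand column the Mir9-1 locus would appear as expression of Gm25641. No further mature RNA in the RefSeq table shares a seed with miR-9-5p or miR-9-3p.

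No member passed the test for a difference between the libraries. Ratios are log2 of replicate 1 over replicate 2 with TMM library sizes, and the test was a two-sided exact binomial test with Benjamini-Hochberg adjustment over 476 rows. This test compares 2 libraries and not conditions, and treats reads as independent molecules. Of all 476 rows tested, 185 (38.9%) passed an adjusted p under 0.05, 99 higher and 86 lower in replicate 1, while edgeR's exact test with a common dispersion called 1. Of the members 5 could be tested and 0 passed, with 0 of the 5 at an unadjusted p under 0.05 as well. The ratio of Mir9-3 was -0.047 (95% interval -0.12 to 0.03, exact binomial adjusted p = 0.366), and that of the Mir9-1 locus -0.10 (-0.30 to 0.10, exact binomial adjusted p = 0.505), and with library totals as the scaling these were 0.061 and 0.0081. The intervals of the low members were wide, from -1.03 to 0.97 for Mir9-2, from -1.09 to 0.88 for Mir124a-2 and from -1.49 to 2.04 for Mir124a-1. Differences within these ranges were not excluded. Mir124a-3 had too few counts to be tested. The median log2 ratio of all tested rows was -0.02.

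A set of 20 further neural genes was read in the same libraries. Of these, 11 passed, 8 with the higher level in replicate 1 and 3 with the lower, and their median log2 ratio was 0.04. Over all rows 38.9% passed, a share that includes rows of low counts. Among rows with at least 50 counts in each library 171 of 294 passed, and again 11 of the list. Mir92b, a progenitor microRNA and the highest of the list, had 57224 and 50675 counts (log2 ratio -0.01, exact binomial adjusted p = 0.505). Mir137, which is known to act in neuronal maturation, had 36871 and 26385 counts (log2 ratio 0.30), and it passed the exact binomial test but not edgeR's exact test with a common dispersion (adjusted p = 1). With edgeR's exact test 0 of the 20 passed, and 1 of them had an unadjusted p under 0.05. Neither has an arm in common with another hairpin. Of the list's genes with 2 annotated arms, 6 had no shared arm, at a median of 1779 CPM, 12 had 1 of 2 arms shared, at 319 CPM, and 0 had both shared. Whether these genes differ from the members in how often they pass was not tested.

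Ranked by own-strand reads, except for Gm25641, which was placed by its opposite-strand reads, Mir9-3 stood at rank 102 by mean CPM, the Mir9-1 locus at rank 203, Mir124a-2 at 349, Mir9-2 at 351, Mir124a-1 at 434 and Mir124a-3 at 520. Another 9 genes had more opposite-strand reads than Gm25641 in both libraries and were placed by their own strand. With reads of either strand for every gene, an alternative chosen after seeing the data, Mir9-3 stood at rank 109, the Mir9-1 locus at 212, Mir124a-2 at 359, Mir9-2 at 361, Mir124a-3 at 393 and Mir124a-1 at 445, so Mir124a-3 then stood above Mir124a-1. The genes next to Mir9-3 were Mir363 above (741 ± 146 CPM) and Mir187 below (725 ± 53.8 CPM), and neither differed from it by more than its own SD. Next to Mir124a-2 stood Gm23394 (4.96 ± 1.23 CPM) and Mir1912 (4.79 ± 3.52 CPM), again within their SD. Mir124a-2 and Mir9-2 could not be told apart, with count ratios of 1.00 (0.511 to 1.96) and 1.06 (0.524 to 2.13) in replicates 1 and 2. Mir9-2 had 2.50 (1.055 to 6.56) and 3.00 (1.14 to 9.23) times the counts of Mir124a-1 in replicates 1 and 2. The other neighbours in the order of the 6 had intervals that excluded equal counts in each library, except Mir124a-1 and Mir124a-3.

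**Figure D3:**
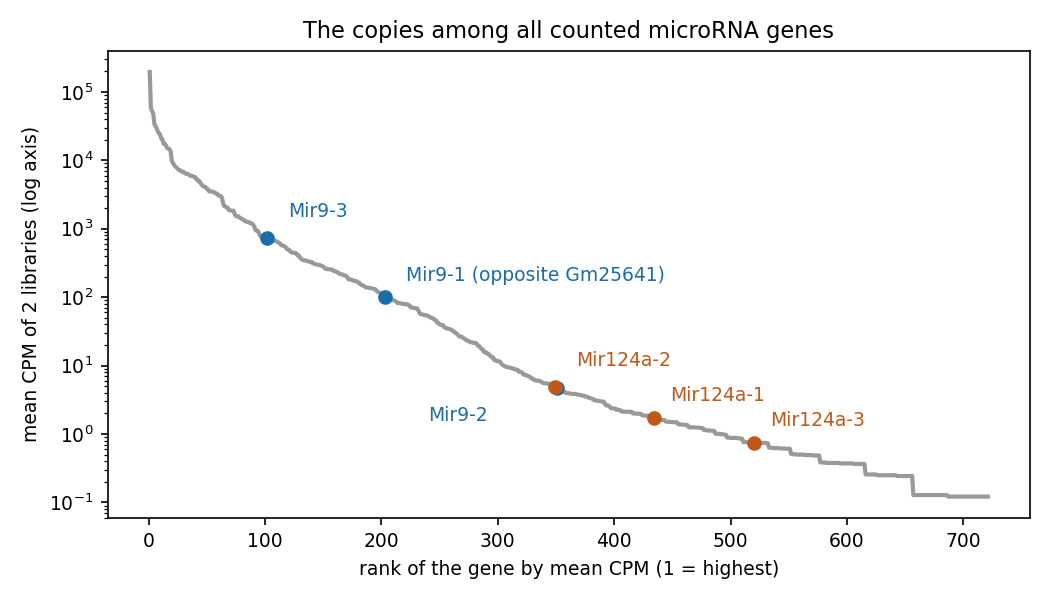
Mean CPM of 2 libraries on a log axis against the rank of each counted microRNA gene (grey line), by own-strand reads except for Gm25641 (opposite strand), with the Mir9 copies in blue and the Mir124 copies in orange. The copies of 1 family spread over a wide range of ranks, from 102 to 351 for Mir9 and from 349 to 520 for Mir124.

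Of the genes of which both mature arms recur elsewhere, 7 of 18 had counts in at least 1 library, and Mir9-3 was the highest of them. Arms were known for 858 genes of the table, 555 of them with 2 arms. Both arms were found exactly in another hairpin for 18 genes, the 3 Mir9 copies among them, and for the Mir124 genes the arms were not used here. Of the 18, 11 had 0 counts in both libraries, and the median of the 18 was 0 CPM. Over all 1973 genes of the table, 1253 had 0 own-strand counts in both libraries, a similar share. That total includes genes without 2 known arms, and among genes with 2 arms the other classes had smaller shares at 0. The median was 27.4 CPM for 54 genes with 1 shared arm (8 at 0) and 2.37 CPM for 483 genes with no shared arm (82 at 0). Outside Mir9, the highest of the 18 were Mirlet7c-2 with 952 and 905 counts (231 CPM) and Mirlet7a-1 with 681 and 671 counts (169 CPM), followed by Mir199a-2 (3.84 CPM) and Mir199a-1 (0.850 CPM). By the fewest bases that must be added to an arm to give a stretch with 1 place, 5 of the 18 needed 1 or 2 bases, and all 5 had counts, Mir9-3 among them with a need of 1. A further 4 needed 3 to 5 bases, of which 2 had 0 counts. Both the Mir9-1 locus and Mir9-2 are in this group, each with a need of 4. The other 9 needed more or had no such stretch within 12 bases, and all 9 had 0 counts. Genes that are not expressed in the forebrain also have 0 counts, so expression and placement of reads cannot be told apart here.

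**Figure D4:**
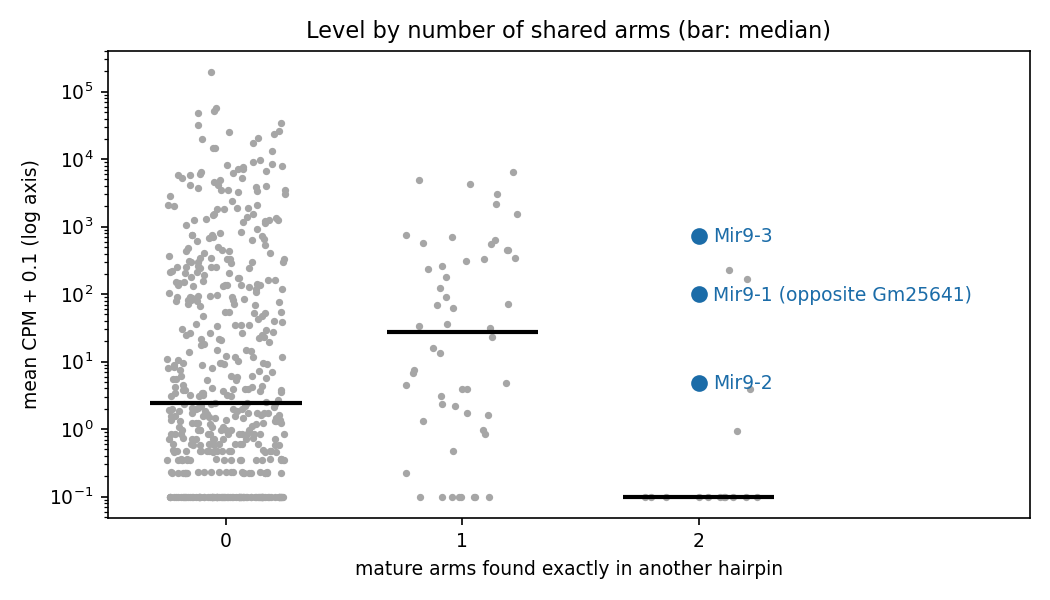
Mean CPM (with 0.1 added, log axis) of genes with 2 annotated mature arms, by how many arms recur exactly in another hairpin, with bars at the medians over all genes of a class. The Mir9 copies (blue) are spread over the class with both arms shared, whose median is 0 CPM, and Mir9-3 is its highest gene.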

How the data were processed

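Small RNA of 2 libraries of 1 group was analysed. The authors deposited raw counts of reads per microRNA gene, for either strand, the strand of the gene and the opposite strand, with separate rows for reads outside genes; mm10 and GENCODE M4 are named in the deposited read-me texts, while the sources used here do not give the aligner or the counting tool. Summary rows (61.3% of reads in replicate 1 and 62.6% in replicate 2) were left out of library sizes. Symbols and positions came from GENCODE M21 on the same build (1894 of 1973 identifiers matched), and mature arms and hairpins from RefSeq (GRCm38.p6).

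CPM is counts per 1000000 own-strand gene counts. TMM used edgeR 4.0.16 in R 4.3.3. The exact binomial test (scipy 1.17.1) ran on rows whose 2 libraries summed to 10 counts or more, with the opposite-strand reads of Gm25641 as an extra row. A prior count of 0.5 was used for ratios. The test was tried on simulated counts that held counting error only. That trial does not show how the test behaves where libraries differ by more than counting error. With 1 group no test between conditions was possible. Places of windows and arms were searched exactly, on both strands, among 2202 GENCODE and 1005 RefSeq hairpins and not in the genome. Intervals are exact 95% intervals, Poisson for CPM and binomial for shares and ratios.

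Members, lists and rules were chosen with earlier results of these data known. Named genes were the members, 20 further neural genes by counts with the 2 highest without a shared arm, the neighbours in level of the highest copy of each family, the 4 highest genes with both arms shared, and cell type markers. Mir3078 and Mir3093 were added as the other microRNA genes of the host genes. Alternatives were DESeq2 1.42.0 size factors, library totals, other count filters, edgeR's exact test, other denominators, either strand, each library alone and other window lengths.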

Additional observations from a re-analysis of the deposited data

Results flagged for a closer look

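Reads on the strand opposite to Mir124a-3 exceeded the limit that a count of 0 allows. They lay in a column that the comparisons above do not use for this gene. Replicate 1 had 9 such reads and replicate 2 had 10 (mean 9.5), beside 3 and 3 reads on its own strand. They made up 75% (exact 95% interval 42.8 to 94.5) and 76.9% (46.2 to 94.96) of its reads on either strand. Mir124a-1 and Mir124a-2 had 0 opposite-strand reads in both libraries. Over all rows, 13 genes, Gm25641 and Mir124a-3 among them, had more opposite-strand than own-strand reads in each library, with more than 3 opposite-strand reads in each. GENCODE M21 has no gene on the other strand of Mir124a-3, and the source of these reads was not tested.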

How the results depend on the processing

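Depth limits the Mir124 copies and Mir9-2, with 20 counts or fewer a library. Relative to all reads of the tables the Mir9 sum was 321 and the Mir124 sum 2.80 per 1000000 reads. Without the Mir9-1 locus the Mir9 sum was 743 CPM, and with reads of either strand the Mir124 sum was 9.72 CPM. With 1 library at a time the Mir9 sum ran from 826 to 858 CPM, the Mir124 sum from 7.16 to 7.53 CPM, and the median of genes with 1 shared arm from 25.1 to 26.1 CPM, since a median of means is not the mean of medians. With arms shortened by 2 nucleotides at each end that median was 31.9 CPM. Among genes that reached 10 counts in both libraries the medians were 163, 209.6 and 134 CPM for 0, 1 and 2 shared arms. The order of the classes was thus kept, while the sizes of the medians depend on genes with few or 0 counts. Windows of 18 nucleotides had 1 place in 59.5% of cases for Mir9 and 56.9% for Mir124, and windows of 26 nucleotides in 81.25% and 77.0%.

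No tested member passed the threshold under any of the alternatives run. No paired analysis was possible because there is 1 group. The sign of some ratios depended on the scaling: with library totals they were 0.073 for Mir9-2, 0.061 for Mir9-3 and 0.0081 for the Mir9-1 locus (Gm25641), and with DESeq2 size factors 0.011 for Mir9-2. The adjusted p of Mir9-3 ranged from 0.210 to 1 over its alternatives. The edgeR exact test, whose dispersion was estimated from these same libraries, called 1 of 476 rows (30 at an unadjusted p under 0.05), and the binomial alternatives called 171 to 195. With DESeq2 size factors 118 of the 185 called rows were higher in replicate 1, and with library totals 141 of 195.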

Other observations

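The multi-mapped row was larger relative to gene counts in replicate 2, at 1.05 reads for each gene count in replicate 1 and 1.17 in replicate 2. The tables held 819 and 703 Mir9 reads and 7.18 and 6.10 Mir124 reads per 1000000 multi-mapped reads in replicates 1 and 2. These are values of 2 libraries with no test.

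The list of further neural genes holds 7 pairs of copies, all given here as means of 2 libraries with SD. Mir128-1 and Mir128-2 had 746 ± 174 and 575 ± 146 CPM, and Mir7-1 and Mir7-2 had 692 ± 153 and 327 ± 63.4 CPM. Mir125b-1 and Mir125b-2 had 2149 ± 221 and 1429 ± 27.9 CPM, and Mir129-1 and Mir129-2 had 38.9 ± 1.04 and 123 ± 2.52 CPM. Mir138-1 and Mir138-2 had 450.3 ± 159 and 238 ± 81.6 CPM, and Mir135a-1 and Mir135a-2 had 310.1 ± 8.59 and 182 ± 28.6 CPM. Mir218-1 and Mir218-2 had 13.2 ± 0.924 and 15.6 ± 2.95 CPM. A difference from the Mir9 copies was not tested.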
